A study of Homo sapiens with 6 samples.

Results

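The hypoxia-inducible factors and the enzymes that sense oxygen for them were followed across 6 microarrays of H295R/TR SF-1 cells. Of 10 genes considered, EPAS1, HIF1A, HIF3A, ARNT, EGLN1, EGLN2, EGLN3, VHL, ADM and CA9, 9 had at least 1 probe set of their own in the platform annotation, and CA9 had none there and was not analysed here. The members were the 28 probe sets, of 54613 on the array, that the annotation gives to 1 of these genes alone. A further 2 probe sets list EGLN2 together with other genes and were not attributed to it. The genes were chosen by their roles and by the log2 difference of EPAS1 in an earlier comparison of the same arrays, so the values are given as a description.

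The H295R line was grown from an adrenocortical carcinoma, and H295R/TR SF-1 is a single subclone of it in which the antibiotic doxycycline induces the nuclear receptor SF-1, encoded by NR5A1. The 3 arrays labelled Dox were from cells given 1 µg/mL doxycycline for 72 h, and the 3 labelled basal were from the same cells kept for 72 h without it. Each value is the log2 signal of a probe set in 1 array, and arrays are called by their labelled group and a number that follows the order of deposition. The study compared the groups to ask which transcripts depend on the dosage of SF-1.

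Hypoxia-inducible factors are pairs of an oxygen-regulated alpha subunit, encoded by HIF1A, EPAS1 (HIF-2 alpha) or HIF3A, and the stable partner encoded by ARNT. When oxygen is present, the prolyl hydroxylases encoded by EGLN1, EGLN2 and EGLN3 modify the alpha subunits, and the protein encoded by VHL then directs their destruction. When oxygen is short, the pairs accumulate and bind the short core RCGTG in genes such as ADM, EGLN3 and CA9. Since the alpha subunits are controlled mainly as proteins, an array of transcripts does not report their activity.

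The sequences before the start sites of an alpha subunit whose signal differed between arrays, of one whose signal was steady, and of the main oxygen sensor are shown so that the core motif of these factors can be seen in place. They are the 250 bases before the gene start in RefSeq on GRCh38.p14, written from 5′ to 3′ on the strand of the gene, with ACGTG or GCGTG on either strand in capitals. EPAS1 is at chr2:46297157-46297406 on the plus strand, with its motif starting 117 bases before the gene start. HIF1A is at chr14:61695263-61695512 on the plus strand, with its motif starting 204 bases before the start. A second HIF1A promoter, at chr14:61697462-61697711 and not shown, held 0 matches. EGLN1 is at chr1:231422288-231422537 on the minus strand, with its motif starting 13 bases before the start.
EPAS1: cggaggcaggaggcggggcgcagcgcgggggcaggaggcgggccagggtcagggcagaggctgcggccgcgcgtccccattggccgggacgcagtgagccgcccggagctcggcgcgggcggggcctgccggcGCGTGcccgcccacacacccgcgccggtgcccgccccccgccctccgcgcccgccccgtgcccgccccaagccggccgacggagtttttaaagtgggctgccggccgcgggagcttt
HIF1A: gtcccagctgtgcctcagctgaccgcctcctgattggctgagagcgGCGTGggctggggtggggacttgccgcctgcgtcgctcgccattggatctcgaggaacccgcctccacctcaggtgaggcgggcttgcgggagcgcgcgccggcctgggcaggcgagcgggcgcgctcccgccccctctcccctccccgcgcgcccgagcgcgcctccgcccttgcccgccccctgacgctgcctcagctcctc
EGLN1: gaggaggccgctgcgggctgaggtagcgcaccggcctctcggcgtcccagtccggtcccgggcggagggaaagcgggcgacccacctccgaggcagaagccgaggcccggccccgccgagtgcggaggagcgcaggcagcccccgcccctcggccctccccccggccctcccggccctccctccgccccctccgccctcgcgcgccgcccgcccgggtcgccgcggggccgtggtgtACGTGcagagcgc
RefSeq promoters were matched for 9 of the 10 genes, VHL being the exception, and several genes had more than 1, giving 13 in all. ACGTG or GCGTG was found on either strand in 7 of the 13, against 43.2% of 35116 promoters of the same length. Matches may share letters, and CACGTG, which holds ACGTG on both strands, was counted on each. The SF-1 half-site AAGGTCA was found in 0 of the 13, against 3.44% of all promoters. A match gives letters in a window and no bound factor.

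The arrays did not fall apart by label, which bears on every value that follows. The array labelled Dox 1 was nearly identical to that labelled basal 1, with an SD of their difference of 0.134 over all probe sets and 0 probe sets over 2-fold apart. The array labelled Dox 2 had the same relation to that labelled basal 3 (SD 0.149, 0 probe sets), whereas pairs within a label had SDs of 0.258 to 0.452 and 525 to 2197 probe sets over 2-fold. The arrays labelled Dox 3 and basal 2 had less spread between their probe sets (SD 2.37 and 2.36) than the rest (2.43 to 2.44) and are called the second array set. NR5A1, the induced gene, read 5.55, 6.21 and 6.41 in Dox 1, 2 and 3, against 5.84, 5.92 and 6.30 in basal 1, 2 and 3, a difference of 0.03 ± 0.24 (SE). Whether its single probe set detects the introduced copy is not given in the sources used here, so this reading does not settle the labels. An exchange of labels and RNA shared within the near-identical pairs cannot be told apart from these values, and either would change what a labelled mean of 3 arrays stands for. Each member is therefore given in the labelled groups (3 Dox against 3 basal) and in 4 arrays, the arrays labelled Dox 2 and Dox 3 against those labelled basal 1 and basal 2 with array set as a block. The comparison of 4 arrays breaks both near-identical pairs by leaving out Dox 1 and basal 3. It is 1 of several ways of doing so and raises the NR5A1 difference to 0.43 ± 0.14 (SE, limma adjusted p = 0.132).

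EPAS1, the alpha subunit named for its place in the vascular endothelium, was the member whose signal differed most between arrays. Its brightest probe set, 200878_at, read 7.65, 10.06 and 9.94 in Dox 1, 2 and 3, against 7.67, 7.16 and 10.14 in basal 1, 2 and 3. The signal was high in Dox 2, Dox 3 and basal 3 and low in Dox 1, basal 1 and basal 2, so the labelled groups overlapped fully. In RNA from whole cultures, more cells with a transcript and more transcript in each cell cannot be told apart. The labelled means were 9.22 ± 1.36 in Dox and 8.32 ± 1.60 in basal (SD, n = 3 each), and the difference of 0.90 ± 0.92 (SE) was within the spread of the arrays. In the 4 arrays EPAS1 was higher in those labelled Dox by 2.59 ± 0.13 (SE), or 6.01-fold, with a 95% interval of 2.31 to 2.87. The difference was 2.39 between Dox 2 and basal 1 and 2.79 between Dox 3 and basal 2. When basal 1 and Dox 2 were left out in place of their near-identical partners, it was 0.15, so the value rests on which array of each pair is kept.

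**Figure D1:**
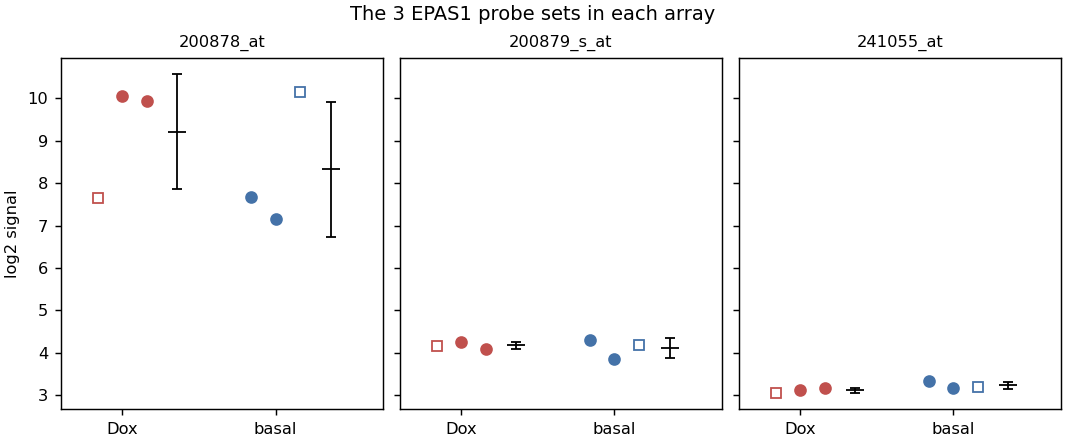
Log2 signal (y axis) of the 3 EPAS1 probe sets in the arrays labelled Dox (left, red) and basal (right, blue), in the order 1 to 3, with the mean ± SD of each labelled group in black and open squares for Dox 1 and basal 3, which the comparison of 4 arrays leaves out. In 200878_at both groups hold high and low arrays, between 7.16 and 10.14, whereas the other probe sets stay between 3.05 and 4.30.

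The other EPAS1 probe sets did not show this pattern. The probe set 200879_s_at read 4.17, 4.26 and 4.08 in Dox 1, 2 and 3, against 4.30, 3.85 and 4.18 in basal 1, 2 and 3, with a difference in the 4 arrays of 0.10 ± 0.14 (SE). The probe set 241055_at read 3.05, 3.13 and 3.17 in Dox, against 3.33, 3.17 and 3.19 in basal, with a difference of -0.10 ± 0.13. Both lay below the median of every array, where a signal is not shown to be above background. On the mean of the 3 probe sets, EPAS1 differed by 0.86 ± 0.11 in the 4 arrays and by 0.28 ± 0.33 in the labelled groups.

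HIF1A, the alpha subunit present in most cells, has 1 probe set, 200989_at. It read 13.23, 13.14 and 12.83 in Dox 1, 2 and 3, against 13.26, 12.73 and 13.17 in basal 1, 2 and 3. The lowest arrays were Dox 3 and basal 2, the second array set, and not those of either label. The difference was 0.01 ± 0.17 (SE) in the labelled groups and -0.01 ± 0.08 in the 4 arrays. The 95% interval in the 4 arrays, -0.18 to 0.16, held no value near the EPAS1 difference.

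HIF3A, whose shorter products can restrain the other alpha subunits, read close to the array medians or below them. Its brightest of 7 probe sets, 219319_at, read 6.00, 6.03 and 6.45 in Dox 1, 2 and 3, against 6.22, 6.33 and 6.43 in basal 1, 2 and 3. These ranges overlapped, and the difference in the 4 arrays was -0.03 ± 0.14 (SE). The other 6 probe sets were below the median of every array and differed by -0.10 to 0.20 in the 4 arrays.

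ARNT, the shared partner, also has 7 probe sets. The brightest, 218221_at, read 8.73, 8.55 and 8.49 in Dox 1, 2 and 3, against 8.75, 8.58 and 8.51 in basal 1, 2 and 3. Each group held nearly the same 3 values, and the differences were -0.02 in the labelled groups and -0.15 ± 0.12 (SE) in the 4 arrays. The other ARNT probe sets differed by -0.20 to 0.06 in the 4 arrays. The dim probe set 210828_s_at had the widest range over the 6 arrays of any member other than 200878_at, 0.95, with its lowest values of 4.14 in Dox 3 and 3.95 in basal 2, the second array set again.

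**Figure D2:**
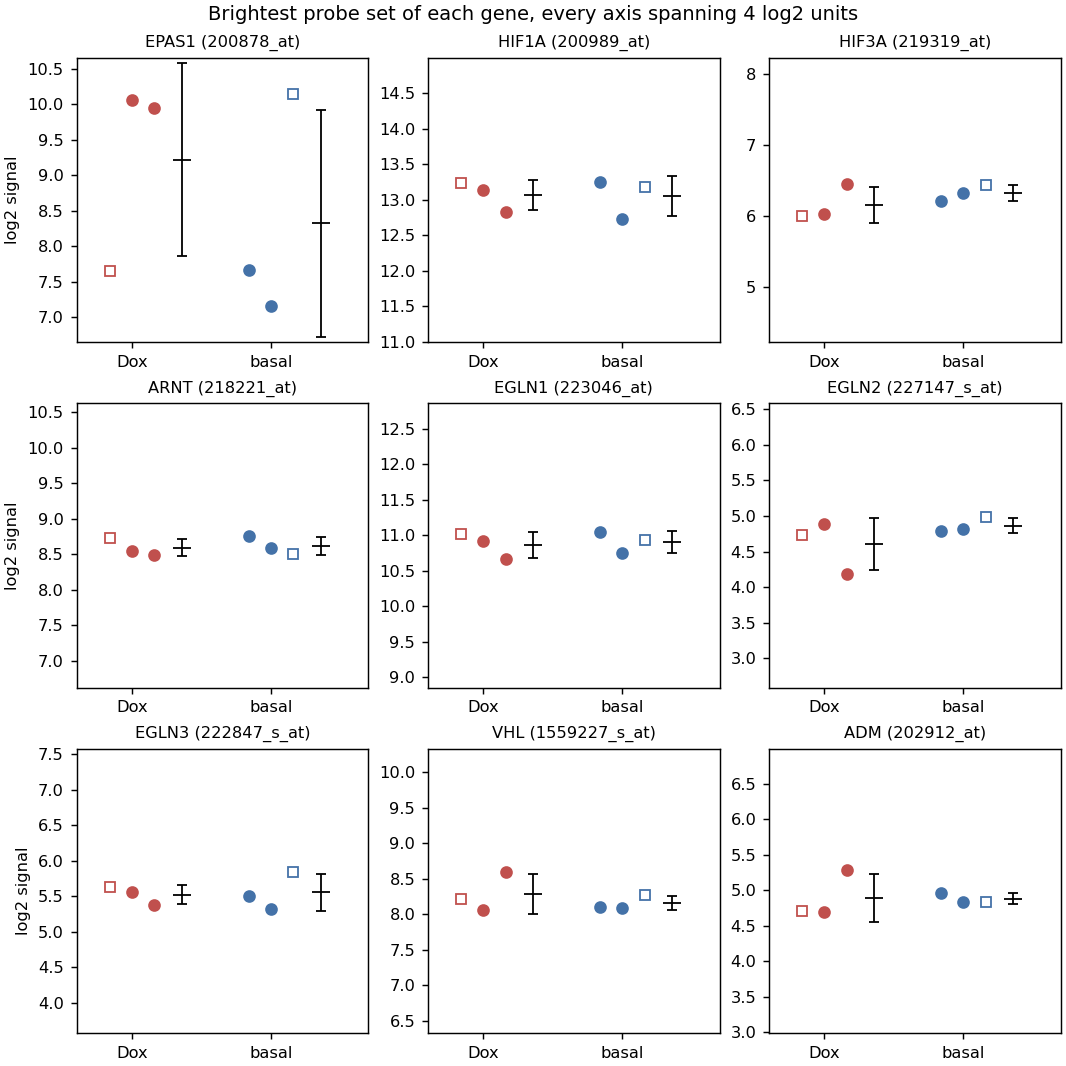
Log2 signal (y axis, 4 units high in every panel) of the brightest probe set of each of the 9 genes in the arrays labelled Dox (left, red) and basal (right, blue), with the mean ± SD of each labelled group (n = 3) in black and open squares for Dox 1 and basal 3. EPAS1 spans 7.16 to 10.14, while in the 8 other genes the arrays of both labels lie close together.

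Among the oxygen sensors, EGLN1 (PHD2), the main hydroxylase of HIF-1 alpha when oxygen is present, read well above the array medians. Its brightest probe set, 223046_at, read 11.01, 10.92 and 10.66 in Dox 1, 2 and 3, against 11.05, 10.74 and 10.93 in basal 1, 2 and 3. The second array set was lowest here too, and the difference in the 4 arrays was -0.10 ± 0.09 (SE). Of its other probe sets, 224314_s_at read 7.14, 6.98 and 6.85 in Dox, against 7.16, 7.29 and 6.83 in basal. Its difference in the 4 arrays, -0.31 ± 0.14, was the lowest of any member and did not pass the threshold. The remaining EGLN1 probe sets differed by -0.08 and 0.16, and the one at 0.16 was below the median of every array. The brighter probe sets of the gene all had a difference below 0, and none passed.

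EGLN2 (PHD1) has 1 probe set of its own, 227147_s_at, which was below the array median throughout. It read 4.73, 4.89 and 4.19 in Dox 1, 2 and 3, against 4.79, 4.81 and 4.98 in basal 1, 2 and 3. Dox 3 was the lowest array, and the difference in the 4 arrays of -0.26 ± 0.17 (SE) was made of 0.10 between Dox 2 and basal 1 and -0.63 between Dox 3 and basal 2. The probe sets that list EGLN2 with other genes, 220956_s_at and 223083_s_at, differed by 0.36 ± 0.12 and 0.18 ± 0.14 and could come from any of the listed genes. EGLN3 (PHD3), a hydroxylase that is itself induced by hypoxia in many cells, read 5.62, 5.57 and 5.37 in Dox, against 5.51, 5.32 and 5.84 in basal by its brighter probe set, 222847_s_at. Its highest array was basal 3, and its 2 probe sets differed by 0.06 ± 0.14 and 0.02 ± 0.17 in the 4 arrays.

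VHL, the subunit of the ubiquitin ligase that recognises hydroxylated alpha subunits, read 8.21, 8.05 and 8.60 in Dox 1, 2 and 3, against 8.11, 8.09 and 8.27 in basal 1, 2 and 3, by 1559227_s_at. Dox 3 was the highest array, and Dox 2 the lowest. The difference in the 4 arrays was 0.23 ± 0.14 (SE), the highest of any member other than 200878_at, with -0.05 between Dox 2 and basal 1 and 0.51 between Dox 3 and basal 2. The dim probe set 203844_at differed by 0.13 ± 0.12.

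ADM encodes adrenomedullin, a vasodilator peptide and a standard hypoxia-induced transcript. It read 4.70, 4.70 and 5.28 in Dox 1, 2 and 3, against 4.97, 4.83 and 4.84 in basal 1, 2 and 3, below the median of every array. The highest value was in Dox 3, and the lowest were in the other arrays labelled Dox. The difference of 0.09 ± 0.17 (SE) in the 4 arrays was made of -0.27 between Dox 2 and basal 1 and 0.46 between Dox 3 and basal 2.

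Over all 28 member probe sets, the labelled comparison with limma passed 0 at an adjusted p of 0.05, against 0 of 54613 probe sets (0%). At an unadjusted p under 0.05 it passed 0 members, against 373 probe sets (0.683%). The labelled difference was above 0 in 17 members and below 0 in 11, with a median of 0.01. The groups did not overlap in 1 member, EPAS1 241055_at, which was lower in Dox and below the array medians, against 2.07% of all probe sets that were lower without overlap, 1.74% that were higher and 3.81% in either direction. An exact permutation test of 3 against 3 arrays cannot go below p = 0.1. In the 4 arrays, 1 of 28 members passed, EPAS1 200878_at, which was higher in Dox, against 2.07% of all probe sets that passed as higher, 2.09% as lower and 4.15% in either direction. It was also the only member at 2-fold with an unadjusted p under 0.05, a rule that took 0.879% of all probe sets. This contrast was known when the genes were chosen, so the count is a description, and it was 0 without the array set block.

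The other 27 members lay between -0.31 and 0.23 in the 4 arrays, with a median of -0.02. Their 95% intervals reached at most from -0.63 to 0.54, so none included a 2-fold change, with errors drawn almost wholly from the spread of all probe sets. For members below the median of every array, this does not exclude a change that the probe set could not show. Only 10 of the 27 had the same sign between Dox 2 and basal 1 as between Dox 3 and basal 2. In the labelled groups they lay between -0.26 and 0.17. In 9 members the second array set stood outside the 4 other arrays, above them in 3 and below them in 6, against 49.3% of all 54613 probe sets (27.2% above and 22% below). Signals below the median of every array were found in 16 of the 28 members and, among brightest probe sets, in those of EGLN2 and ADM.

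**Figure D3:**
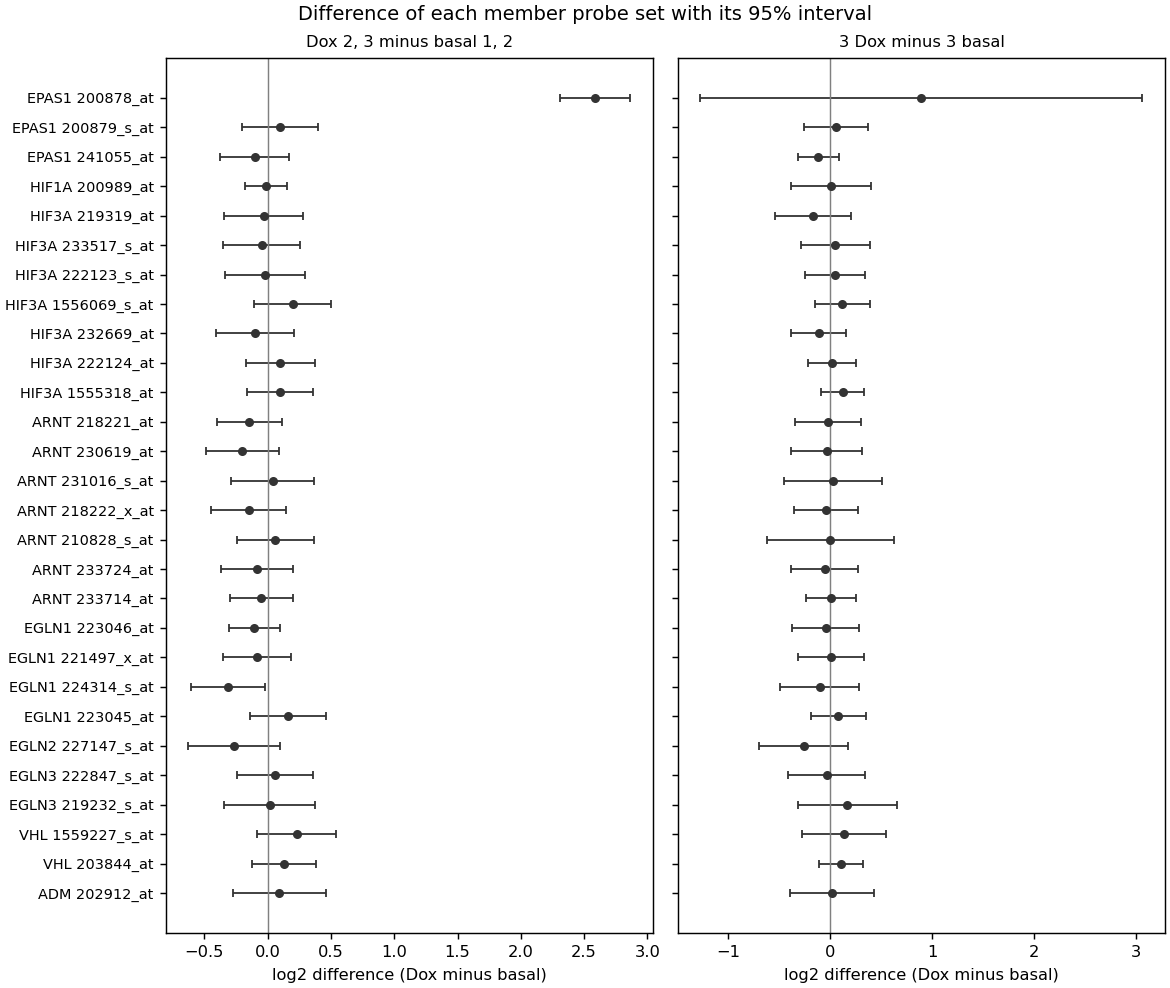
Log2 difference, Dox minus basal (x axis), of the 28 member probe sets with its 95% interval, in the 4 arrays (left panel) and in the labelled groups of 3 (right panel), where the 2 panels have different x scales. EPAS1 200878_at lies at 2.59 in the 4 arrays with the 27 others between -0.31 and 0.23, and its labelled interval spans 0.

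The genes whose profile over the 6 arrays was most like that of EPAS1 200878_at were found by the root mean square distance of mean-centred log2 values. They were COL18A1 (distance 0.10), which encodes a basement membrane collagen, INSM1 (0.13), a neuroendocrine transcription factor, KIT (0.15), a receptor tyrosine kinase, MTCL1 (0.19), a microtubule-binding protein, and TMCC3 (0.20). COL18A1 read 8.43, 11.07 and 10.94 in Dox 1, 2 and 3, against 8.52, 8.07 and 10.88 in basal 1, 2 and 3. The arrays labelled Dox 1 and basal 3 stood with the opposite label, which the choice of genes by their likeness to EPAS1 sets in advance. None of the 5 is an oxygen sensor or a hypoxia-inducible factor, and the likeness, over 6 arrays that share near-identical pairs, is a description of level only.

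The other genes of the pathway were taken from 7 lists with 125 measured genes, each represented by its brightest probe set. In the labelled groups 0 of them passed. In the 4 arrays 8 rose and 10 fell, 14.4% of the 125, against 6.43% of all 19775 genes (3.16% higher and 3.27% lower). All 18 had the same sign in both array sets of this comparison. The fit that picked them averages the differences of the array sets, so this agreement is largely set by the selection and is no replication. Of the 18, 4 reached 2-fold. The study had singled out 4 on these arrays, so their direction is not independent evidence. The count was 0 of the 125 without the array set block, and 0 with basal 1 and Dox 2 left out in place of basal 3 and Dox 1. In that last choice of arrays, SIAH2, CITED2, AHR, NDRG1, BHLHE40 and CA13, 6 of the 12 passing genes given by name below, had the opposite sign, so the directions that follow hold for these 4 arrays. The lists were described by count and median alone, and the median of all genes was -0.01. They were chosen with earlier results of these data known. Few of their genes lay below the median of every array, so the 14.4% and the 6.43% are not like for like. With a filter on low values, 24 of 101 pathway genes passed in the 4 arrays, against 2763 of 27274 probe sets.

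Of the machinery that acts on the alpha subunits, most genes did not pass. Of 15 measured hydroxylase and degradation genes 1 fell, SIAH2, a ubiquitin ligase for the hydroxylases, by 0.37 ± 0.09 (SE, limma adjusted p = 0.0369, or 0.188 with no mean-variance trend), and the median was -0.01. HIF1AN, the asparagine hydroxylase of the alpha subunits, differed by 0.09 ± 0.12, and the membrane hydroxylase gene P4HTM by -0.39 ± 0.12, neither of which passed. Of 12 coactivators and antagonists 1 rose, CITED2, which competes with the alpha subunits for their coactivators, by 1.06 ± 0.14 (adjusted p = 0.000266), and the median was -0.02. CITED2 read 6.47, 7.55 and 7.83 in Dox 1, 2 and 3, against 6.36, 6.92 and 7.51 in basal 1, 2 and 3. Its other probe sets went down to 0.02, and the study had singled it out.

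Of 12 factors of the bHLH-PAS family, to which the hypoxia-inducible factors belong, 2 fell and the median was -0.14. BMAL2, a clock factor, fell by 0.84 ± 0.13 (SE, limma adjusted p = 0.0014), and AHR, the dioxin receptor, fell by 0.76 ± 0.14 (adjusted p = 0.00419). AHR read 7.97, 7.10 and 5.67 in Dox 1, 2 and 3, against 7.93, 6.36 and 7.19 in basal 1, 2 and 3. The second array set was lowest in each group, which is a larger step than that between the labels. ARNT2, a close relative of ARNT, differed by -0.28 ± 0.13 and did not pass.

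Of 47 measured genes that respond to hypoxia in many cells, 5 rose and 5 fell, with a median of 0.02. NDRG1, a stress-induced gene, rose by 0.86 ± 0.13 (SE, limma adjusted p = 0.00126) and PFKFB3, a regulator of glycolysis, rose by 0.72 ± 0.13 (adjusted p = 0.00373). The transcriptional repressor genes BHLHE41 and BHLHE40, both singled out by the study, fell by 1.48 ± 0.11 (adjusted p = 1.4e-06) and 1.06 ± 0.15 (adjusted p = 0.000454). The other probe sets of BHLHE41 went up to 0.02, and the other of BHLHE40 was at -0.13. Others of the best known responders did not pass. VEGFA, the main angiogenic factor, differed by 0.19 ± 0.09, SLC2A1, a glucose transporter, by -0.0042 ± 0.11, LDHA, lactate dehydrogenase, by 0.02 ± 0.08, and PGK1, a glycolytic kinase, by 0.10 ± 0.07. These 4 were chosen as familiar examples after their values were seen.

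Of 17 measured genes often described as preferring HIF-2, the factor that holds the EPAS1 product, 0 rose and 1 fell, with a median of 0.06. Over all 19775 genes 3.16% rose and 3.27% fell, so these counts are near the share over all genes. Of the 17, 6 were below the median of every array. CCND1, 1 of these, differed by 0.17, with another probe set at 0.73. The gene that fell was ITPR1, a calcium channel of the endoplasmic reticulum, by 0.56 ± 0.13 (SE, limma adjusted p = 0.0191, or 0.217 on the mean of its probe sets), and its other probe sets went up to 0.14. PLIN2, a lipid droplet protein, differed by 0.46 ± 0.14, CYBRD1, an iron reductase, by -0.37 ± 0.12, and EPO, erythropoietin, by 0.31 ± 0.17 at a signal below the median of every array. None of these passed.

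The genes around the members ADM and CA9 were also read. Of 9 measured genes of the adrenomedullin receptor and of peptide processing, 0 rose and 0 fell, with differences from -0.22 to 0.35 and a median of -0.07. Of 14 carbonic anhydrases 2 rose and 1 fell, with a median of -0.05. CA4, a membrane-anchored carbonic anhydrase singled out by the study, read 7.39, 9.25 and 9.30 in Dox 1, 2 and 3, against 7.31, 7.10 and 9.28 in basal 1, 2 and 3. It rose by 2.07 ± 0.13 (SE, limma adjusted p = 3.39e-07), with Dox 1 and basal 3 again on the opposite side of their labels. CA13 rose by 0.84 ± 0.14 (adjusted p = 0.00214), with another probe set at 0.03, and CA11 fell by 0.55 ± 0.12 (adjusted p = 0.0153). CA12, the hypoxia-responsive relative of CA9, differed by -0.38 ± 0.16 and did not pass.

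**Figure D4:**
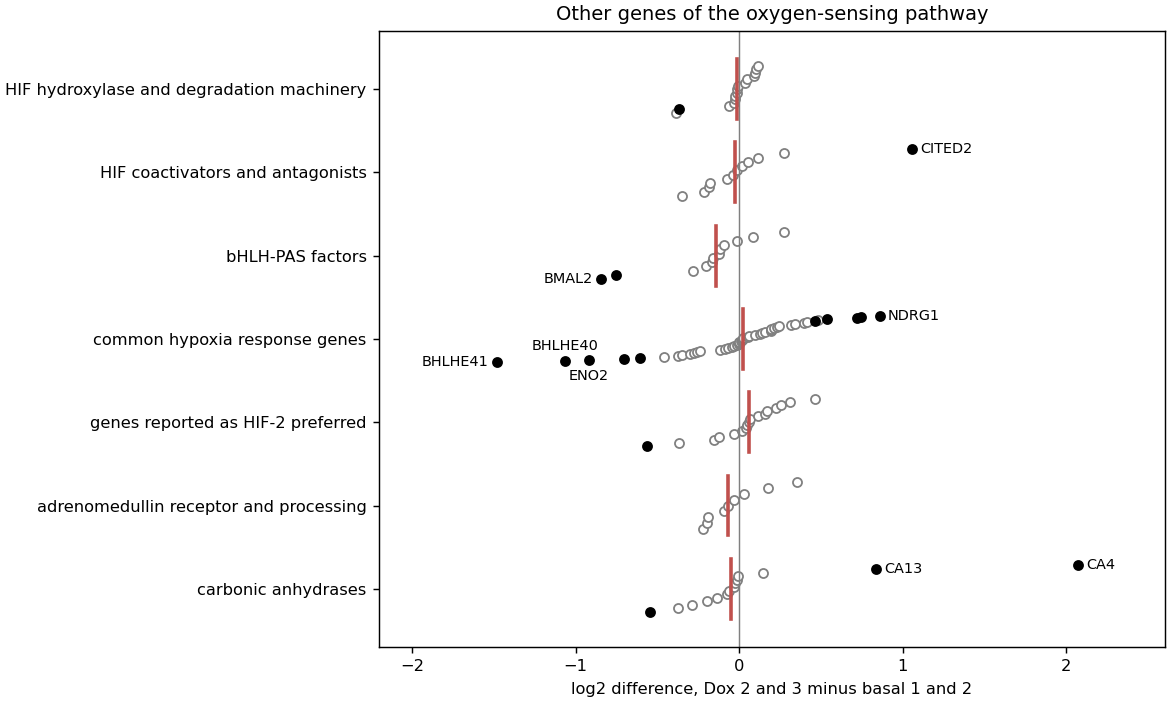
Log2 difference in the 4 arrays (x axis, Dox 2 and 3 minus basal 1 and 2) of the measured genes of the 7 pathway lists (y axis), where a point is a gene by its brightest probe set, filled where it passed an adjusted p of 0.05, and the red line is the median of the list. The medians lie between -0.14 and 0.06, with CA4 at 2.07 and BHLHE41 at -1.48 farthest from 0, and gene names are given beyond 0.8.

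Since EPAS1 is abundant in endothelium, the markers of other cell types were read beside it. None of 10 endothelial markers passed in the 4 arrays, and their mean signal was 5.32 to 5.37 in the arrays labelled Dox and 5.30 to 5.44 in those labelled basal. Of the 10, 5 were below the median of every array, CDH5 among them. The brightest, EGFL7, read above the array medians, at 7.43 to 7.67 in Dox and 7.33 to 7.89 in basal. Of 8 measured adrenal medulla markers 1 fell, CHGB, by 0.75 ± 0.14 (SE), and of 11 stromal and blood cell markers 1 fell, COL3A1, by 1.09 ± 0.21. The other probe sets of COL3A1 went up to -0.07. Of 8 measured adrenocortical markers 2 fell, HSD3B2 by 1.40 ± 0.18 and STAR by 0.54 ± 0.09. CYP11A1 was bright in every array, 10.48 to 11.90 in Dox and 10.54 to 11.66 in basal, whereas MC2R read near the array medians, 5.17 to 5.57 in Dox and 5.33 to 5.72 in basal. The part of these genes in the EPAS1 values was not tested.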

How the data were processed

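Total RNA of 6 samples, 3 labelled Dox and 3 labelled basal, was measured on Affymetrix 3′ expression arrays. The deposited table holds log2 signals per probe set. GCRMA is named in the submitters' processing notes, with no version, while the methods mention only the console software of the array's manufacturer. A single normalization run for the 6 arrays is not given in the sources used here. The array medians lay between 5.56 and 5.60 and the values were used without further scaling or filter. The study calls the arrays of a condition biological replicates. Since the near-identical pairs cross the labels, p-values measure only the spread between these arrays, and their number limits the precision.

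The platform annotation gave 1 symbol to 41091 of 54613 probe sets, several to 1801 and none to 11721. The 19775 genes were represented by the probe set with the highest mean over the 6 arrays. All probe sets were fitted with limma 3.58.1 (lmFit and eBayes with a trend, R 4.3.3), with Benjamini-Hochberg adjustment over all of them, two-sided, and the fit was tested on simulated data. The comparison of 4 arrays had 1 residual degree of freedom, so its errors draw almost wholly on the spread of all probe sets. Fits with no block, other blocks, other arrays left out, quantile normalization, a filter on low values, no trend, the mean over a gene's probe sets, and the study's own cut of 2-fold and p under 0.05, here limma's unadjusted p, were tried.

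The rule for named genes took every member, NR5A1, up to 4 genes with the smallest adjusted p in each pathway list, and the 5 nearest profiles to EPAS1. HIF1AN, VEGFA, SLC2A1, LDHA, PGK1, CCND1 and the marker genes CDH5, EGFL7, CHGB, COL3A1, HSD3B2, STAR, CYP11A1 and MC2R fall outside this rule. They were named after their values were seen. Members, lists, block and the arrays left out were all chosen with earlier results of these data known.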

Additional observations from a re-analysis of the deposited data

How the results depend on the processing

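In the labelled groups, 0 members and 0 pathway genes passed limma's adjusted threshold in each alternative run, and 0 to 0 with 1 array left out, where the unadjusted p was under 0.05 in 301 to 650 probe sets. The labelled EPAS1 200878_at difference was 0.31 to 1.81 with 1 array left out, highest without basal 3 (1.81) and Dox 1 (1.68) and lowest without basal 2 (0.31). In the 4 arrays, the count of members fell to 0 and that of pathway genes to 0 without the array set block. The same held with basal 1 and Dox 2 left out in place of basal 3 and Dox 1. Of all 54613 probe sets 0 passed in each of these, with an unadjusted p under 0.05 in 1580 and 518. The EPAS1 difference was 2.59 and 0.15 there. Label style was also tried as the block in the 4 arrays, where basal 1 is the only one whose title spells out the treatment. That block absorbs basal 1 and leaves Dox 2 and Dox 3 against basal 2 alone, with an EPAS1 difference of 2.84. With basal 1 and Dox 2 left out, SIAH2 (0.0221), CITED2 (-0.0608), AHR (0.0443), NDRG1 (-0.12), BHLHE40 (0.36) and CA13 (-0.14) changed sign, as did AHR (0.0277) with label style as the block. With basal 1 and Dox 2 left out, Dox 1 minus basal 3 replaces Dox 2 minus basal 1. Given the near-identical pairs, it is close to that difference with its sign reversed. It then partly cancels the difference between Dox 3 and basal 2 in genes with the same sign in both array sets. Lower counts and changes of sign are therefore built into that choice, and why the pairs are near-identical was not tested. At 2-fold with an unadjusted p under 0.05, 4 pathway genes and 1 member passed in the 4 arrays, against 0.879% of probe sets. In the labelled groups the same cut took 0 pathway genes and 0 members, against 0 of 54613 probe sets (0%). Quantile normalization, the filter, and 1 probe set a gene kept past the threshold all 12 named pathway genes that had passed. Signals below the array median limit what 16 of the 28 members can show. The labels give the groups no shared replicate numbers. In the 4 arrays, the array set was the only block tried that paired a Dox with a basal array. Among all arrays, Dox 1 and basal 1, a near-identical pair, are also the only ones with spelled-out titles, the rest having short codes. Label style would therefore also pair a Dox with a basal array there, and it was not tried as a block in the labelled groups.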
